A study of Mus musculus with 6 samples.

Results

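Interferon-stimulated effector genes carry out the antiviral state that type I interferon starts in a cell. Interferon binds the IFNAR receptor, the kinases JAK1 and TYK2 phosphorylate STAT2, and this joins IRF9 in the complex ISGF3, which binds interferon-stimulated response elements in DNA. The induced proteins sense or degrade viral RNA, block translation, modify proteins with ISG15 or ADP-ribose, and hold viruses at membranes. Lymphoid tissue transcribes these genes at a low tonic level without infection. The genes described here are 39 symbols listed by name, although earlier results of these data were known when the list was made. All 39 were among the 56413 symbols of the count table, and all 39 passed the filter on low counts, which 18716 symbols passed.

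RNA was measured in total splenocytes taken fresh from Top3b-KO mice and from wild-type (WT) mice, in 3 libraries of each genotype, by sequencing of total RNA after removal of ribosomal RNA. The deleted gene codes for topoisomerase III-beta, an enzyme that relaxes DNA and RNA, and the study examines its part in immune control and tumour formation. The sources used here do not state the allele, strain, age, sex or number of animals per library. P-values therefore measure the spread between these libraries, which may be technical. No treatment with interferon or infection is named for either genotype.

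Library totals were 9941014 to 25473404 counts in Top3b-KO and 15262060 to 15860287 in WT, with Top3b-KO replicate 3 the smallest. Levels are counts scaled by library size and TMM factors (CPM). Top3b was at 51.5, 48.2 and 49.7 CPM in the Top3b-KO libraries, against 95.1, 86.9 and 91.0 CPM in the WT libraries, so the labelled knockouts were lower without overlap but kept counts for the gene. Marker lists for the main cell types of spleen had counts for every gene. Of these markers, 0 were called between genotypes, beside 0.0107% of all tested genes. Some had an unadjusted p under 0.05 by edgeR, as had 5.52% of all tested genes. Lower were 2 of 6 plasmacytoid dendritic cell markers (Ly6d and Spib), 1 of 4 NK cell markers (Klrb1c) and 1 of 5 red pulp macrophage markers (Hmox1). Higher was 1 of 5 T cell markers (Cd3e). Summed B cell markers were at 2902 to 3050 CPM in Top3b-KO and 2731 to 3266 CPM in WT, and summed T cell markers at 834 to 866 CPM in Top3b-KO and 769 to 869 CPM in WT. Summed plasmacytoid dendritic cell markers were at 528 to 568 CPM in Top3b-KO and 560 to 621 CPM in WT, a narrow overlap. The mean sum was lower in Top3b-KO for every list except those of T cells and neutrophils. In bulk RNA, fewer cells of a type and less RNA per cell cannot be told apart.

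The DNA element through which ISGF3 acts was visible in the promoters of some of these genes, and it is printed here because the choice of genes did not use it and it recurs in part of the list. RefSeq promoter windows (GRCm38.p6, 250 bases before to 50 bases after a start site) matched 30 of the 39 genes. The response element core, GAAA followed by any 2 bases and GAAA again, was searched on both strands with overlapping matches allowed. It occurred in 13 of those 30 genes (43.3%), and in 1079 of all 27025 genes with a window (3.99%). A match is a run of letters and not a measured binding site, and the count table bears on none of these positions. Each stretch below is read in the direction of the gene and holds the matches, in capitals, with up to 25 bases before the start site on either side. On the opposite strand the core reads TTTC, any 2 bases and TTTC.
Isg15, chr4:156200850-156200921, minus strand: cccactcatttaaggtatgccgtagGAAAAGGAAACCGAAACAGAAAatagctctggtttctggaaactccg
Rsad2, chr12:26456538-26456597, minus strand: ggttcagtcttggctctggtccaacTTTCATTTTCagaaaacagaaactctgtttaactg
Ifit1, chr19:34640760-34640838, plus strand: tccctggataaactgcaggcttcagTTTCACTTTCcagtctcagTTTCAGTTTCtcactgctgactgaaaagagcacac
Ifit3, chr19:34583348-34583441, plus strand: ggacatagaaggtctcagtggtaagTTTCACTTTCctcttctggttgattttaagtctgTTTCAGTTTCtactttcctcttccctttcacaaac
Oas1a, chr5:120907526-120907570, minus strand: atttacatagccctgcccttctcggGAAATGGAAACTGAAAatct
Oas1g, chr5:120887614-120887656, minus strand: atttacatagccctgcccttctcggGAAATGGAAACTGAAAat
Stat2, chr10:128270251-128270310, plus strand: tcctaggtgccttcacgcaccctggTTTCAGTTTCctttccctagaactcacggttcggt
Isg15 held 3 overlapping matches between 78 and 57 bases before its start. Ifit3b carried the same 94 bases as Ifit3 at chr19:34607744-34607837, and these neighbouring copies shared an unbroken run of 169 bases in their windows. Oas1a and Oas1g shared a run of 73 bases in their windows, whose position was not recorded. Their printed stretches are the same over the whole length of the Oas1g stretch, core included. Such pairs are near copies in their transcripts too, which limits how their counts can be read.

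No interferon-stimulated gene passed the test between Top3b-KO and WT splenocytes. Of 39 genes, 0 were called in either direction at an adjusted p of 0.05 with edgeR (quasi-likelihood test, Benjamini-Hochberg adjustment over all genes), against 0.0107% of all 18716 tested genes, 0.00534% higher and 0.00534% lower. DESeq2 and limma-voom also called 0 of the 39. At an unadjusted p under 0.05, edgeR had 1 gene higher (1.83% of all tested genes were) and 0 lower (3.69%), which is 1 of 39 beside 5.52% of all tested genes, and DESeq2 had 0. The fitted log2 fold change was above 0 for 18 genes and below 0 for 21, with a median of -0.020, beside -0.0029 over all tested genes. Values ran from -0.33 for Oas1g to 0.25 for Ifit1.

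The fitted intervals describe differences between these libraries. Their spread may be technical, so they do not bound a difference between mice. The genes also varied together by library, so their intervals are not separate bounds. The 95% interval of the fold change lay within 2-fold in both directions for all 39 genes, beside 16681 of all 18716 tested genes. It lay within 1.5-fold for 35 of the 39 (89.7%, beside 67.0% of all tested genes). The 4 with wider intervals were Ifit3b, Oas1g, Rsad2 and Ifi27l2a. The 39 genes were more abundant, with a median of 35.0 CPM beside 11.0 CPM over all tested genes, and higher counts alone narrow an interval. Taken as a sum, the 39 genes made 2891, 2983 and 3200 CPM in the Top3b-KO libraries, against 2742, 2954 and 3211 CPM in the WT libraries. The genotypes overlapped, and the lowest and the highest sum were both WT.

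**Figure D1:**
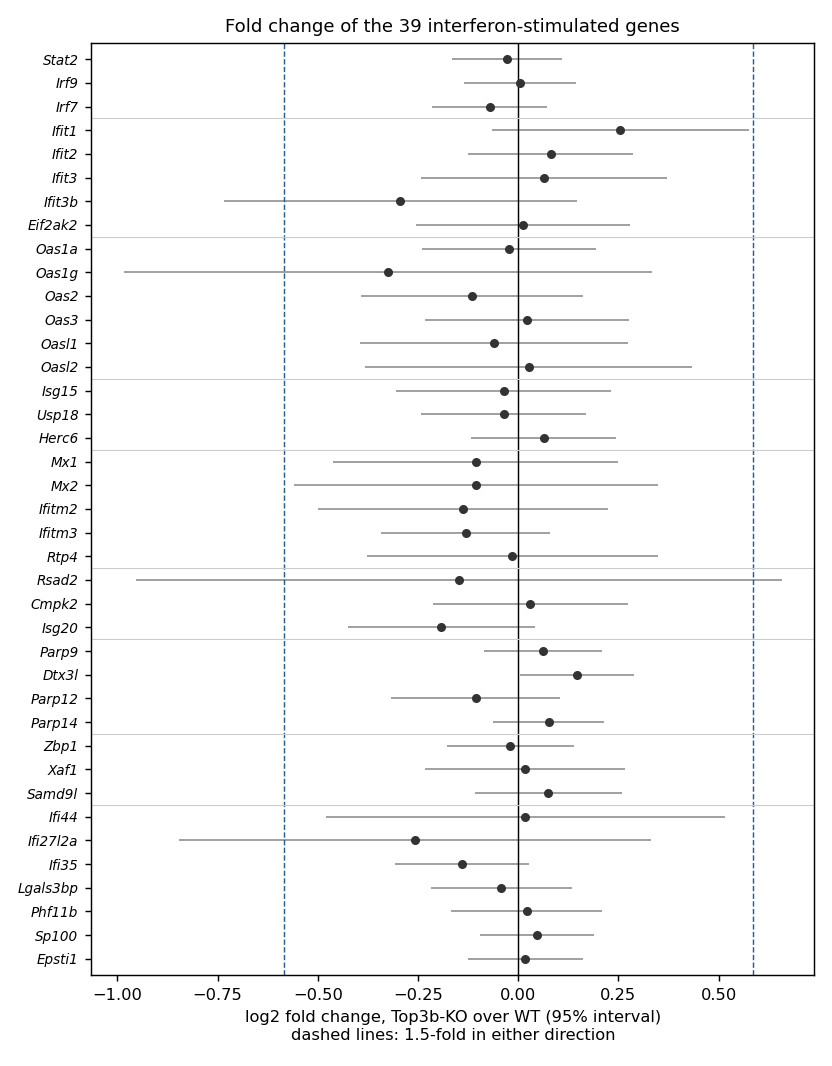
Fitted log2 fold change of each of the 39 genes, Top3b-KO over WT, with its 95% interval, in the order of the roles described in the text; dashed lines mark a 1.5-fold change in either direction. Points lie between -0.33 and 0.25, and 4 intervals (Ifit3b, Oas1g, Rsad2 and Ifi27l2a) reach past a dashed line.

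Genes of the signalling complex itself were close in level. Irf9, the DNA-binding subunit of ISGF3, was at 149, 145 and 161 CPM in the Top3b-KO libraries, against 143, 156 and 154 CPM in the WT libraries. Stat2, its partner, was at 132, 134 and 144 CPM in the Top3b-KO libraries, against 144, 140 and 134 CPM in the WT libraries. Both genotypes overlapped for each gene. Log2 fold changes were 0.0043 (SE 0.0667) for Irf9 and -0.029 (SE 0.0652) for Stat2. Irf7, which drives interferon-alpha genes and is itself induced by interferon, averaged 90.0 ± 5.58 CPM in Top3b-KO and 94.3 ± 2.24 CPM in WT (SD, n = 3 each), again with overlap.

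Among the genes that stop translation of viral RNA, Eif2ak2 encodes PKR, the kinase that senses double-stranded RNA, and it was at 56.4, 66.2 and 72.1 CPM in the Top3b-KO libraries, against 52.2, 65.8 and 74.1 CPM in the WT libraries. Ifit2, an RNA-binding tetratricopeptide protein, was at 59.8, 67.7 and 65.8 CPM in the Top3b-KO libraries, against 52.5, 58.3 and 71.8 CPM in the WT libraries. The WT values of both genes enclosed all 3 Top3b-KO values. Ifit1, which binds the cap of foreign RNA, had the highest fitted change of the 39 genes, a log2 fold change of 0.25 (SE 0.152, adjusted p = 0.915 by edgeR). Its levels were 11.0, 13.7 and 12.0 CPM in the Top3b-KO libraries and 8.27, 9.57 and 13.0 CPM in the WT libraries, so WT replicate 3 stood inside the Top3b-KO range. Ifit3, which stabilises IFIT1 on RNA in human cells, and its copy Ifit3b had log2 fold changes of 0.064 (SE 0.143) and -0.29 (SE 0.209). Of the 101-base stretches in Ifit3 transcripts, 31.3% also occur in Ifit3b, so the split of reads between the pair is uncertain. With the counts of both summed, their log2 fold change was 0.00024.

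The oligoadenylate synthetase family makes the messenger that switches on RNase L when double-stranded RNA is present. Oas3 was at 44.9, 46.3 and 58.0 CPM in the Top3b-KO libraries, against 42.2, 45.9 and 57.4 CPM in the WT libraries. Oasl2 was at 34.0, 42.1 and 52.6 CPM in the Top3b-KO libraries, against 34.0, 43.1 and 47.6 CPM in the WT libraries. For both genes replicate 3 was the highest library of each genotype, and the genotypes overlapped. Oas1g had the widest range over libraries of all 39 genes and was also the least abundant, at 0.983, 1.86 and 2.33 CPM in the Top3b-KO libraries, against 1.36, 2.10 and 2.64 CPM in the WT libraries. Its counts were 24, 47 and 23 in Top3b-KO and 21, 32 and 42 in WT, few enough that counting error alone is large, and 31.0% of its 101-base stretches also occur in Oas1a. The 6 synthetase genes had log2 fold changes of -0.33 to 0.026, and 0 had an unadjusted p under 0.05.

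ISG15 is a ubiquitin-like tag, Herc6 is the ligase that attaches it in mouse cells, and Usp18 removes it and dampens the receptor. Herc6 was at 41.3, 39.9 and 42.5 CPM in the Top3b-KO libraries, against 40.6, 35.0 and 42.5 CPM in the WT libraries. Usp18 was at 28.9, 25.6 and 33.4 CPM in the Top3b-KO libraries, against 28.9, 29.9 and 30.5 CPM in the WT libraries. The genotypes overlapped for both. Isg15 itself averaged 12.9 ± 1.36 CPM in Top3b-KO and 13.2 ± 1.72 CPM in WT (SD, n = 3 each). Expressed per kilobase of exon, because its transcript is short, Isg15 came to 17.0 CPM per kilobase in Top3b-KO and 17.4 in WT, above Herc6 at 4.44 in Top3b-KO and 4.24 in WT.

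The membrane proteins and GTPases block entry or later steps of infection. Ifitm3, which hinders fusion of viruses in endosomes, was at 34.4, 41.5 and 46.9 CPM in the Top3b-KO libraries, against 40.6, 46.0 and 46.8 CPM in the WT libraries. Mx1, a dynamin-like GTPase of the nucleus that many laboratory strains carry in a defective form, was at 21.5, 24.6 and 28.1 CPM in the Top3b-KO libraries, against 20.3, 25.5 and 33.2 CPM in the WT libraries. Neither gene separated the genotypes. Mx2, its paralog, was at 9.87, 12.8 and 18.3 CPM in the Top3b-KO libraries, against 11.5, 14.9 and 16.2 CPM in the WT libraries, and here both the lowest and the highest of the 6 libraries were Top3b-KO. All 5 genes of this group, with Ifitm2 and Rtp4, had fitted values below 0, from -0.14 to -0.015, and 0 had an unadjusted p under 0.05. That shared sign depended on single libraries: without WT replicate 3 the fitted values of Mx1 and Rtp4 were 0.095 and 0.14, and without Top3b-KO replicate 1 that of Mx2 was 0.10. Ifitm2 and Rtp4 counts are uncertain, since 34.6% and 9.23% of their 101-base stretches occur in other genes.

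Rsad2, which encodes viperin, and its neighbour Cmpk2, a nucleotide kinase, are induced together and act on nucleotides that viruses need. Rsad2 was at 56.0, 49.7 and 61.7 CPM in the Top3b-KO libraries, against 37.8, 74.6 and 72.1 CPM in the WT libraries. WT replicate 1 was at 0.516 times the mean of the other WT libraries, and the 3 Top3b-KO libraries lay in between. Cmpk2 was at 33.9, 35.1 and 37.4 CPM in the Top3b-KO libraries, against 27.2, 36.1 and 40.5 CPM in the WT libraries, with WT replicate 1 again the lowest. The SD of Rsad2 was 5.98 CPM in Top3b-KO and 20.5 CPM in WT, and the log2 fold change of -0.15 had an SE of 0.301, one of the largest among the 39 genes. Isg20, an exonuclease of single-stranded RNA, went another way among libraries. It averaged 22.5 ± 0.819 CPM in Top3b-KO and 25.7 ± 4.28 CPM in WT (SD, n = 3 each), and WT replicate 3 was its lowest library.

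**Figure D2:**
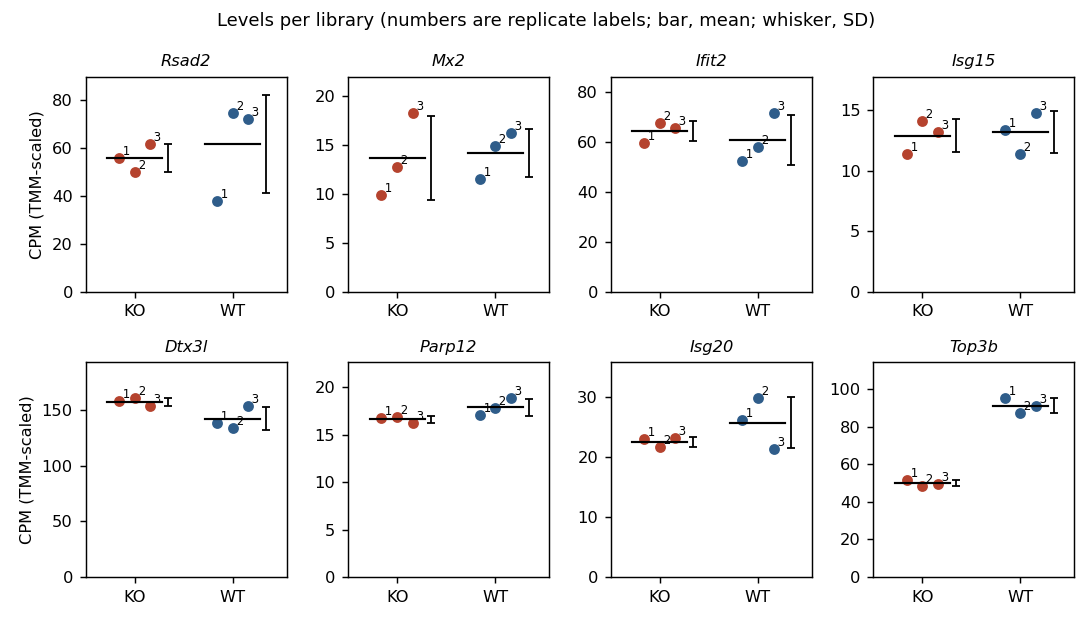
TMM-scaled CPM in each library for 7 interferon-stimulated genes and for Top3b, with Top3b-KO left of WT, axes starting at 0, a bar at the mean and a whisker of 1 SD (n = 3 each). Rsad2 in WT runs between 37.8 and 74.6 CPM around all 3 Top3b-KO values, whereas Top3b lies between 48.2 and 51.5 CPM in Top3b-KO and between 86.9 and 95.1 CPM in WT.

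The ADP-ribosylation group held the single gene with an unadjusted p under 0.05. Dtx3l, an E3 ligase that works as a heterodimer with PARP9, was at 158, 160 and 153 CPM in the Top3b-KO libraries, against 138, 134 and 154 CPM in the WT libraries. WT replicate 3 lay just above the lowest Top3b-KO library, so the genotypes overlapped. Its log2 fold change was 0.15 (SE 0.0678, 95% interval 0.0052 to 0.29), with an unadjusted p of 0.0429 and an adjusted p of 0.886 in edgeR after Benjamini-Hochberg adjustment. Over the alternatives its log2 fold change ran from 0.11 to 0.21 and its adjusted p did not go below 0.135. Parp9, the partner, averaged 128 ± 2.94 CPM in Top3b-KO and 123 ± 10.3 CPM in WT, and Parp14, a mono-ADP-ribosyltransferase, was at 263, 272 and 299 CPM in the Top3b-KO libraries, against 257, 263 and 272 CPM in the WT libraries. Dtx3l, Parp9 and Parp14 lie on chromosome 16 with Mx1, Mx2 and Rtp4, the chromosome of Top3b. The median log2 fold change of these 6 genes was 0.023, and that of the 33 on other chromosomes was -0.024. Within the 6, Dtx3l, Parp9 and Parp14 were above 0, and Mx1, Mx2 and Rtp4 were below 0. Upstream genes on chromosome 16 also took both signs, such as 0.032 for Ifnar2 and -0.11 for Ifngr2. Distance to Top3b was not examined, and an effect of the shared chromosome was not tested.

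Only Parp12 and Ifi35 separated the genotypes by rank, both lower, which is 2 of 39 genes beside 5.63% of all tested genes that were lower without overlap (11.0% in either direction). Parp12, which moves to stress granules and inhibits translation, was at 16.8, 16.9 and 16.2 CPM in the Top3b-KO libraries, against 17.0, 17.8 and 18.8 CPM in the WT libraries. Ifi35, a leucine-zipper protein, was at 40.2, 36.6 and 36.2 CPM in the Top3b-KO libraries, against 41.3, 42.7 and 41.0 CPM in the WT libraries. The gap between the nearest libraries was small for both. Log2 fold changes were -0.11 (SE 0.100) for Parp12 and -0.14 (SE 0.0797) for Ifi35, with adjusted p of 0.946 and 0.915 by edgeR. No gene was higher without overlap, beside 5.39% of all tested genes.

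Sp100 and Samd9l were the most abundant genes of the list. Sp100, a nuclear body protein that restrains viral genomes, was at 591, 592 and 634 CPM in the Top3b-KO libraries, against 547, 592 and 619 CPM in the WT libraries. Samd9l, which restricts translation and poxvirus growth, was at 413, 433 and 434 CPM in the Top3b-KO libraries, against 369, 368 and 477 CPM in the WT libraries. Epsti1 was at 170, 180 and 190 CPM in the Top3b-KO libraries, against 173, 171 and 190 CPM in the WT libraries. All overlapped, and their fitted log2 fold changes were 0.047, 0.075 and 0.017. Zbp1, which senses left-handed nucleic acid and can start necroptosis, was at 48.3, 48.9 and 52.3 CPM in the Top3b-KO libraries, against 48.0, 52.6 and 50.5 CPM in the WT libraries, and its 95% interval of -0.18 to 0.14 (log2 fold change) was among the narrower ones. Per kilobase of exon, Sp100 was at 80.1 CPM in Top3b-KO and 77.5 CPM in WT, close to Samd9l at 78.6 in Top3b-KO and 74.6 in WT and to Epsti1 at 77.6 in Top3b-KO and 76.6 in WT. Ifitm3 and Ifi27l2a, whose transcripts are short, came next, Ifitm3 at 60.4 CPM per kilobase in Top3b-KO and 65.6 in WT, and Ifi27l2a at 57.8 in Top3b-KO and 67.9 in WT. The lowest were Ifi44, at 0.446 CPM per kilobase in Top3b-KO and 0.432 in WT, and Oas1g, at 0.737 in Top3b-KO and 0.868 in WT.

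Among the remaining genes, Ifi27l2a, a small interferon-induced protein, was at 21.3, 26.1 and 32.9 CPM in the Top3b-KO libraries, against 22.3, 35.5 and 36.4 CPM in the WT libraries. Replicate 1 was the lowest library of each genotype, and the genotypes overlapped. Its log2 fold change of -0.26 had an SE of 0.240, wide enough that a 1.5-fold difference cannot be told from none. Ifi44, Lgals3bp, Phf11b and Xaf1, an antagonist of the apoptosis inhibitor XIAP, had log2 fold changes of 0.018, -0.043, 0.021 and 0.017, all with overlap. Of Phf11b and Herc6, 13.4% and 10.3% of the 101-base stretches occur in other genes, so their counts are less certain.

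The larger differences lay between libraries of the same genotype. WT replicate 1 was the lowest WT library for 31 of the 39 genes (79.5%), beside 33.1% of all tested genes, and WT replicate 3 was the highest for 30 (76.9%), beside 35.0%. In the knockout, Top3b-KO replicate 1 was the lowest of its genotype for 26 genes (66.7%, beside 33.6%) and Top3b-KO replicate 3 the highest for 30 (76.9%, beside 36.4%). These genes share one response, so they are not independent observations of a library. The mean log2(CPM + 0.5) of the 39 genes was 5.10, 5.19 and 5.35 in the Top3b-KO libraries, against 5.06, 5.26 and 5.38 in the WT libraries. The genotype means differed by -0.017, and the pooled SD within a genotype was 0.146. Over all tested genes the same mean stayed between 3.67 and 3.69 in every library, as the scaling of libraries itself tends to make it.

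**Figure D3:**
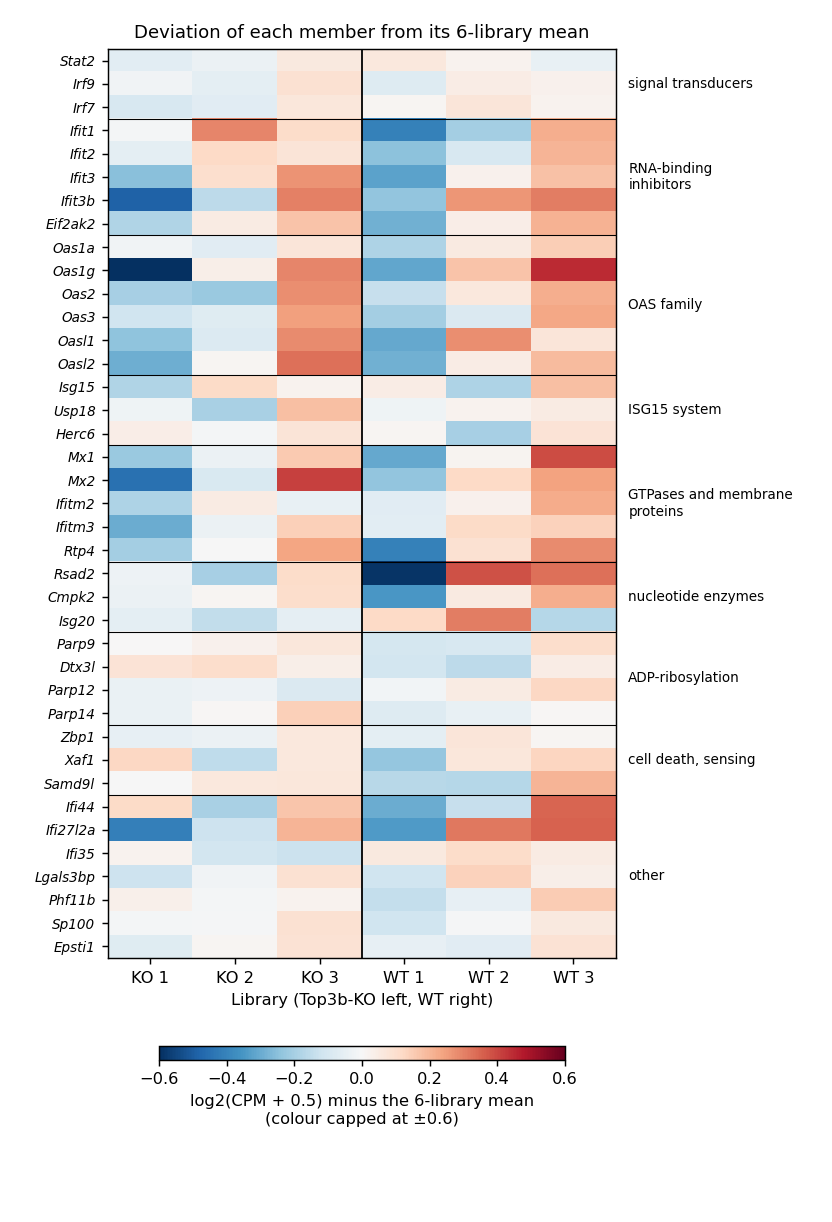
Deviation of log2(CPM + 0.5) of each gene from its mean over the 6 libraries, with Top3b-KO libraries left and WT libraries right and genes grouped by role; colours are capped at 0.6 in either direction. The WT 1 and KO 1 columns are mostly blue (lower) and the WT 3 and KO 3 columns mostly red (higher), a contrast seen within each genotype rather than between them.

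The size of that contrast differed between groups of genes. WT replicate 1 had less than the mean of the other WT libraries by the widest margin for Rsad2 (0.516 times), Oas1g (0.573 times), Ifi27l2a (0.621 times) and Rtp4 (0.655 times). It was not the lowest WT library for Stat2, Isg15, Herc6, Isg20, Dtx3l, Samd9l, Ifi35 and Epsti1. All 5 genes of the RNA-binding group, all 6 synthetases and all 5 of the membrane and GTPase group had WT replicate 1 lowest in WT. With a mean of at least 10 CPM, 35 of the 39 genes had a median SD of log2 values of 0.0940 among Top3b-KO libraries and 0.180 among WT libraries, beside 0.0731 in Top3b-KO and 0.106 in WT for all genes of that level. The 13 genes with the response element core in their promoter window had a median SD of 0.154 in Top3b-KO and 0.227 in WT, and the 17 with a window that lacked it 0.0791 in Top3b-KO and 0.145 in WT. These last SDs take in genes of any level. Genes with the core were less abundant, with a median of 24.6 CPM beside 42.2 CPM, and low counts alone widen an SD. At a mean of at least 10 CPM, the 10 genes with the core had a median SD of 0.153 in Top3b-KO and 0.206 in WT. The 16 without it had 0.0784 in Top3b-KO and 0.137 in WT. The cause of this difference was not tested.

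Some cell type markers followed this contrast and others ran against it, and their part in it was not tested. Summed monocyte markers (4 of 4 tested) were at 573, 710 and 811 CPM in the Top3b-KO libraries, against 647, 721 and 730 CPM in the WT libraries, with replicate 1 lowest and replicate 3 highest in each genotype. Lyz2 carried most of that sum, at 289, 421 and 516 CPM in the Top3b-KO libraries, against 362, 426 and 420 CPM in the WT libraries. In WT, Lyz2 was highest in replicate 2 and not in replicate 3. Csf1r did not follow the order, at 170, 161 and 169 CPM in the Top3b-KO libraries, against 165, 183 and 161 CPM in the WT libraries, and neither did Ccr2. Only Ly6c2 followed it in both genotypes, at 37.1, 41.7 and 44.5 CPM in Top3b-KO and 42.2, 42.6 and 51.2 CPM in WT. Summed B cell markers (5 of 5 tested) were at 2902, 2959 and 3050 CPM in the Top3b-KO libraries, against 2731, 3211 and 3266 CPM in the WT libraries, again with replicate 1 lowest and replicate 3 highest. Summed neutrophil markers (5 of 5 tested) ranged more widely, at 418, 574 and 1410 CPM in the Top3b-KO libraries, against 590, 1044 and 711 CPM in the WT libraries. Plasmacytoid dendritic cells are the main makers of interferon-alpha, and their markers (6 of 6 tested, 0 at no counts) summed to 568, 529 and 528 CPM in the Top3b-KO libraries, against 560, 615 and 621 CPM in the WT libraries. That sum was lowest in replicate 1 among WT libraries but highest in replicate 1 among Top3b-KO libraries. Spib and Tcf4 carried most of it, and both were lowest of WT in replicate 1. Siglech, at 12.8, 9.57 and 9.99 CPM in the WT libraries, and Ccr9, at 36.7, 33.8 and 32.9 CPM, were highest of WT in replicate 1. Bst2 and Ly6d were in between. In Top3b-KO, Siglech and Spib were highest in replicate 1 and the other markers were not. Summed markers of T cells, NK cells, red pulp macrophages and plasma cells ran the opposite way, with replicate 1 the highest library of each genotype. T cell markers (5 of 5 tested) summed to 866, 857 and 834 CPM in the Top3b-KO libraries, against 869, 769 and 769 CPM in the WT libraries. Plasma cell markers (4 of 4 tested) summed to 355, 276 and 220 CPM in the Top3b-KO libraries, against 362, 248 and 274 CPM in the WT libraries. Top3b-KO replicate 3, the knockout library in which most of the 39 genes were highest, also had the fewest counts.

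Because of this spread, the sign of the list's median was set by single libraries. Leaving out Top3b-KO replicate 1 gave 0.019, and leaving out Top3b-KO replicate 3 gave -0.063. Leaving out WT replicate 1 gave -0.10, and leaving out WT replicate 3 gave 0.055. Over all tested genes the median stayed between -0.0050 and 0.0058 in the 6 fits with a library left out. TMM scaling, redone in each fit, itself keeps that median near 0. Without WT replicate 3, 6 of the 39 genes had an unadjusted p under 0.05 (15.4%), beside 13.2% of all genes tested in that fit. Of these 6, 5 were higher and 1 was lower, and the smallest adjusted p was 0.111 by edgeR, that of Samd9l. Without WT replicate 1, 4 of the 39 passed that unadjusted p (10.3%), beside 5.3% of all genes tested. All 4 were lower, and 33 of the 39 fitted values were below 0. Without Top3b-KO replicate 3, 3 passed (7.69%), beside 4.35%. All 3 were lower, and 30 fitted values were below 0. The count was 0 without WT replicate 2, Top3b-KO replicate 1 or Top3b-KO replicate 2, beside 3.58% to 5.59% of all genes. In none of the 6 fits with a library left out was any of the 39 genes called.

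**Figure D4:**
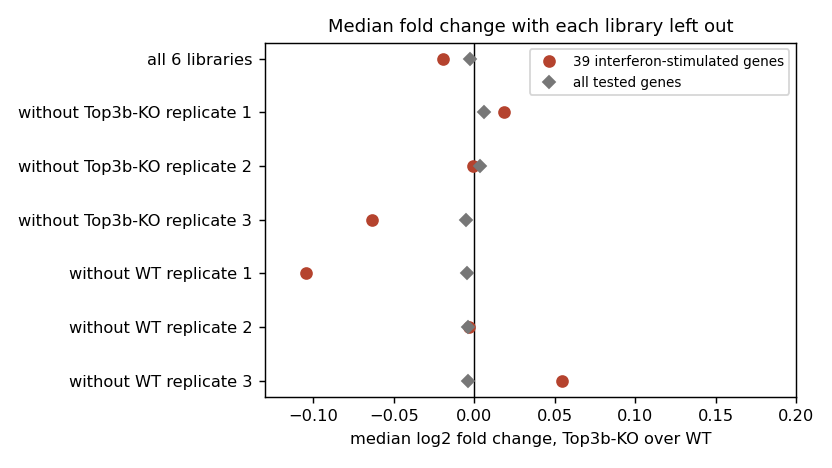
Median log2 fold change, Top3b-KO over WT, of the 39 interferon-stimulated genes (circles) and of all tested genes (diamonds), with all 6 libraries and with each library left out. The circles run from -0.10 without WT replicate 1 to 0.055 without WT replicate 3, on both sides of 0. The diamonds stay near 0, where TMM scaling itself keeps them.

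The genes upstream of the response were also close in level. A list of 38 ligands, receptors, kinases, transcription factors, inhibitors and enzyme partners had 30 tested members. Of these, 0 were called, beside 0.0107% of all tested genes. At an unadjusted p under 0.05 by edgeR, 1 was lower (3.69% of all tested genes were) and 0 were higher (1.83%). Their median log2 fold change was -0.023. Ifnb1, Ifna1, Ifna2, Ifna4, Ifne, Ifnl2 and Ifnl3 had 0 counts in every library, which allows at most 3 counts, or 0.119 to 0.303 CPM, per Top3b-KO library and 0.188 to 0.197 CPM per WT library. Ifnk and Ifnz, also type I ligands, had counts in every library. Ifnk had 20, 31 and 10 counts in Top3b-KO and 20, 12 and 20 in WT. Its log2 fold change was -0.12 (SE 0.323). Ifnz had 2, 6 and 1 counts in Top3b-KO and 4, 4 and 4 in WT. Its CPM were lower in Top3b-KO without overlap, but it did not pass the filter on low counts. Ifng, the type II interferon of T and NK cells, averaged 2.87 ± 1.08 CPM in Top3b-KO and 3.19 ± 0.773 CPM in WT (SD, n = 3 each). Ifnar1 and Ifnar2, the chains of the type I receptor, overlapped between genotypes. Ifnar1 averaged 181 ± 4.16 CPM in Top3b-KO and 179 ± 1.77 CPM in WT, and Ifnar2 averaged 56.0 ± 0.781 CPM in Top3b-KO and 54.7 ± 0.877 CPM in WT.

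Of the 30 tested upstream and partner genes, 4 were lower without overlap (13.3%, beside 5.63% of all tested genes) and 2 were higher (6.67%, beside 5.39%), and none passed the test. Irf8, a transcription factor of B cells and dendritic cells, averaged 267 ± 11.8 CPM in Top3b-KO and 296 ± 8.60 CPM in WT, with a log2 fold change of -0.15 (SE 0.0637, adjusted p = 0.879 by edgeR). Uba7, the enzyme that activates ISG15 for conjugation, averaged 157 ± 9.74 CPM in Top3b-KO and 172 ± 6.12 CPM in WT, with a log2 fold change of -0.13 (adjusted p = 0.915 by edgeR). Bst2, which encodes tetherin and marks plasmacytoid dendritic cells, averaged 14.6 ± 0.963 CPM in Top3b-KO and 16.7 ± 0.745 CPM in WT, with a log2 fold change of -0.18 (adjusted p = 0.915 by edgeR). Ifngr2, a chain of the interferon-gamma receptor, averaged 55.5 ± 1.89 CPM in Top3b-KO and 59.9 ± 1.21 CPM in WT, with a log2 fold change of -0.11 (adjusted p = 0.915 by edgeR). Jak1 and Jak2, kinases of the interferon receptors, were higher without overlap, with log2 fold changes of 0.11 and 0.10 and adjusted p of 0.915 each by edgeR.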

How the data were processed

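The authors deposited one table with an expected count for each symbol and library. STAR and the build mm39 are named in the submitters' processing notes. No source used here gives the counter, annotation, strand setting or handling of reads that match several genes. The labels' protocols describe a pair of library kits. Values were rounded to whole numbers (72 symbols, 0 of them members, held fractions beyond 1e-06). Genes kept by filterByExpr were tested with edgeR 4.0.16 in R 4.3.3 (quasi-likelihood F test, TMM, robust, genotype only, two-sided, Benjamini-Hochberg adjustment over all tested genes, threshold 0.05), with limma 3.58.1 and DESeq2 1.42.0 as alternatives. The script was tested on simulated counts. Fold changes are Top3b-KO over WT. Intervals cover 95%; they and the floor of 3 counts per library cover the spread between libraries or counting error only. Members and lists were chosen with earlier results of these data known. Exon lengths, chromosomes and shared 101-base stretches came from GENCODE M21 and promoters from RefSeq, both on GRCm38, which differs from the build of the counts. Protein sequences were not used here. Values per library are given for the 2 most abundant members of each role, those with an unadjusted p under 0.05 or groups without overlap, and the 3 with the widest range; those of Ifit1, and other members described, were chosen after their values were seen. Pathway genes named by rule were the 3 with the smallest p; others were chosen after their values were seen. The values of 1 pathway gene are not reported here.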

Additional observations from a re-analysis of the deposited data

How the results depend on the processing

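Across the alternatives, 0 of the 39 genes and 0 of the 30 tested upstream genes were called. The count of calls over all tested genes, 2, was 44 without a filter on low counts, 1 with a stricter filter, 6 with DESeq2, 1 with limma-voom, 1 without robust dispersion, 41 with the replicate block and 1 to 32 with a library left out (32 without WT replicate 3). Interferon-stimulated genes higher at an unadjusted p under 0.05, 1 in the values reported, numbered 2 without a filter, 2 with the replicate block, 0 with DESeq2, 0 with library totals, 0 with the stricter filter and 0 to 5 with a library left out. Those lower, 0 in the values reported, numbered 1 without a filter, 1 with the replicate block and 0 to 4 with a library left out. In either direction the share of the 39 genes was 7.69% without a filter (5.11% of all tested genes) and 7.69% with the block (6.86%). All tested genes under that p made 3.33% with DESeq2, 5.67% with library totals and 5.10% with the stricter filter. The labels give shared replicate numbers but no shared litter, batch or day. Correlations of deviations were 0.217, -0.011 and 0.027 for replicates 1, 2 and 3, and -0.123 to 0.106 for differently numbered libraries. Replicate 1 was the lowest library of both genotypes for 22 of the 39 genes (56.4%, beside 14.0% of all tested genes). Whether same-numbered libraries form pairs was not tested. Signs of log2 fold changes near 0 turned with library totals for Irf9 (-0.0074) and Eif2ak2 (-0.00040), with the stricter filter for Irf9 (-0.0047), with limma-voom for Irf9 (-0.00012) and Oasl2 (-0.0089), with the block for Rtp4 (0.020), and with copies summed for Ifit3b (0.00024). With a library left out, these genes took both signs, lowest to highest: Stat2 (-0.063 to 0.0042), Irf9 (-0.038 to 0.041), Ifit2 (-0.018 to 0.22), Ifit3 (-0.070 to 0.21), Eif2ak2 (-0.12 to 0.13), Oas1a (-0.12 to 0.049), Oas1g (-0.55 to 0.0062), Oas3 (-0.090 to 0.16), Oasl1 (-0.21 to 0.084), Oasl2 (-0.13 to 0.18), Isg15 (-0.13 to 0.063), Usp18 (-0.13 to 0.061), Herc6 (-0.014 to 0.12), Mx1 (-0.27 to 0.095), Mx2 (-0.32 to 0.10), Rtp4 (-0.20 to 0.14), Rsad2 (-0.41 to 0.012), Cmpk2 (-0.12 to 0.16), Zbp1 (-0.056 to 0.013), Xaf1 (-0.091 to 0.11), Ifi44 (-0.14 to 0.28), Lgals3bp (-0.11 to 0.019), Phf11b (-0.045 to 0.11), Sp100 (-0.0033 to 0.087), Epsti1 (-0.020 to 0.065). The cause of these shifts was not tested. Depth limits the 4 genes below 10 CPM most: Ifit3b, Oas1g, Ifitm2 and Ifi44.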
